A study of Mus musculus with 6 samples.

Results

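The 8 genes described here belong to the Hippo pathway and its output in mouse kidney proximal tubules. They were chosen by symbol from the 32544 genes of the deposited expression table, and all 8 were found. Of these, 5 are target genes of the coactivators YAP and TAZ (Cyr61, Ctgf, Ankrd1, Amotl2 and Lats2), and 3 encode the transcriptional effectors themselves (Yap1, Wwtr1, which encodes TAZ, and Tead1). The libraries came from C57Bl/6 mice given aristolochic acid I (AA group, 3 libraries) or its solvent dimethyl sulfoxide (DMSO group, 3 libraries), at a stated dose of 3 mg/kg, and their kidneys were taken 24 h after the injection. This acid, a kidney poison from plants, is activated in tubule cells and forms DNA adducts. The design text describes the animals of both groups as control mice, and no age or sex is given in the sources used here. Tubules of the S2 and S3 segments were dissected by hand and pooled within a kidney, and polyadenylated RNA was sequenced. Whether the replicates were different mice is not stated. The p-values set the group difference against the variation between these libraries, which may not be variation between mice.

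In the Hippo pathway, the kinases MST1 and MST2 activate the kinases LATS1 and LATS2, which phosphorylate YAP and TAZ and keep them out of the nucleus. When the kinases are less active, or when cells are stretched, flattened or lose contacts, YAP and TAZ enter the nucleus and bind DNA through TEAD factors. There they raise genes such as Cyr61 and Ctgf, and also Amotl2 and Lats2, whose products restrain YAP and TAZ in turn. The pathway is controlled largely by phosphorylation and protein location, which RNA levels do not measure. In kidney tubules YAP and TAZ are known for roles in growth and in the repair of injured epithelium.

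TEAD factors recognise the letters GGAATG, so the 250 bases before each RefSeq start site (build GRCm38.p6) were searched for them on both strands. Of the 8 genes, 6 had such a window, and 5 of these 6 held the motif (Cyr61, Ankrd1, Amotl2, Yap1 and Wwtr1). Of all 32851 windows of the same length, 12.6% held it. The first count is by gene and the second by window, and Cyr61, Ankrd1 and Amotl2 were chosen as known targets. Lats2 had no match in either of its windows, and Ctgf and Tead1 had no window in the table. Both Lats2 windows lie inside the gene's span in GENCODE M21, so the bases before its outermost start were not searched. A match describes the letters only, not binding. The sites are shown to let a reader compare the motif and its flanks between target genes and effectors. Each line is read 5′ to 3′ on the strand that shows GGAATG, with the motif in capitals.
Cyr61: tcaaacatctcaGGAATGttggttggcgcg
Ankrd1, distal: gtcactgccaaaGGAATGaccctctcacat
Ankrd1, proximal: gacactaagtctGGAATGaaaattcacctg
Amotl2: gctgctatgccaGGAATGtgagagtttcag
Yap1: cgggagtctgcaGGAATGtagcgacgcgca
Wwtr1: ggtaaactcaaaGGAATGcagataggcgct

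These sites lie at chr3:145650071-145650100 (Cyr61, plus strand), chr19:36120037-36120066 and chr19:36119950-36119979 (Ankrd1, minus strand), and chr9:102717727-102717756 (Amotl2, minus strand). Those of the effectors lie at chr9:8004720-8004749 (Yap1, minus strand) and chr3:57576029-57576058 (Wwtr1, minus strand). The motif begins 103 bases before the start site in Cyr61, 210 and 123 bases before it in Ankrd1, and 65 bases before it in Amotl2. In Yap1 it begins 141 and in Wwtr1 136 bases before the start site. In Cyr61 and Amotl2 it points against the direction of transcription, and in Ankrd1, Yap1 and Wwtr1 along it. In GENCODE M21 the Ankrd1 and Amotl2 sites lie in the first exon of a transcript that starts further upstream than the RefSeq one. The AP-1 motif TGANTCA and the CArG box of serum response factor (SRF) were not in any window of these genes, and stood in 6.75% and 1.47% of all windows. The whole window of Cyr61 (chr3:145649986-145650235, minus strand, read along the gene) is shown because Cyr61 had the largest change of the 7 genes with reads in every library. The motif on the other strand stands in capitals.
Cyr61 upstream window: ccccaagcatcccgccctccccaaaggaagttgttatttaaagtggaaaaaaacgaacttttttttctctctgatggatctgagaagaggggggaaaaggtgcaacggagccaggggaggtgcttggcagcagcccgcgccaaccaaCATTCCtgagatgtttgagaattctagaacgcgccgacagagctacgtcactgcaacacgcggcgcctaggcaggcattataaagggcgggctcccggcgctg

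Library totals, recovered from the values, ran from 13304877 to 31136251 counted reads, and values are counts scaled to these totals (CPM). The 14311 genes that reached 1 CPM in 3 or more libraries were tested with limma's moderated test on log2(CPM + 1), with Benjamini-Hochberg adjustment over all of them. At an adjusted p under 0.05, 22.3% of them were higher and 8.66% lower in AA, and these shares are the background for every count below. The median log2 fold change over all tested genes was 0.21, and it was 0.01 with TMM factors and -0.05 with library medians equalised. DMSO replicates 1 and 2 differed from all 4 other libraries by more than 2 on the log2 scale in 40 tested genes, none of them among the 8. No other pair of libraries was counted in this way, so whether this pair stands out is not known. Results are also given with a term that sets DMSO replicates 1 and 2 apart (the library-set term), which compares AA with DMSO replicate 3 alone. Of the 8 genes, 4 passed as higher and 0 as lower. The 4 also passed after quantile normalization and with TMM factors, where 12.7% and 13.2% of all tested genes were higher. After equalising library medians 3 of the 8 passed as higher and Tead1 as lower, against 11.2% and 16.9% of all tested genes. Under the library-set term 3 passed as higher, against 7.39%. One of the 4, Ankrd1, was tested only because its AA libraries reached 1 CPM, whereas the other 7 reached it in all 6 libraries.

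Among the targets, Cyr61 and Ctgf encode matricellular proteins of the CCN family, of which only Cyr61 passed. Cyr61, also called Ccn1, encodes a secreted protein that binds integrins (GRCm38 chromosome 3 from 145646976 to 145649981, minus strand). It stood at 31.1, 43.7 and 40.9 CPM in DMSO replicates 1, 2 and 3, and at 125, 160 and 225 CPM in AA replicates 1, 2 and 3. The lowest AA library was well above the highest DMSO library. Cyr61 rose from 38.5 ± 6.64 to 170 ± 50.7 CPM (mean ± SD, n = 3 each), with log2 fold change 2.08, SE 0.21 and limma adjusted p = 8.4e-05. All 3 AA libraries lay above all DMSO libraries, as in 33.4% of all tested genes. Of the 8 genes, 5 showed this, among them Ankrd1, where the filter fixed the outcome because only its AA libraries reached 1 CPM. The reverse was seen in 0 of the 8 genes and in 13.0% of all tested genes. The adjusted p stayed at or under 0.00177 in each of the 19 alternative settings, the library-set term giving a log2 fold change of 1.98.

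Ctgf, also called Ccn2, encodes a related secreted protein linked to matrix deposition (chromosome 10 from 24595442 to 24598683, plus strand). It read 16.1, 46.1 and 16.98 CPM in DMSO and 43.5, 33.2 and 42.4 CPM in AA. DMSO replicate 2 was the highest of all 6 libraries, so the groups overlapped. The means were 26.4 ± 17.1 and 39.7 ± 5.65 CPM, with log2 fold change 0.73 (SE 0.33, limma adjusted p = 0.111, n = 3 each), which did not pass. DMSO replicate 2 decides this outcome: without it the log2 fold change was 1.21 with an adjusted p of 0.00229. The library-set term gave 1.17, with an adjusted p of 0.092.

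Ankrd1 encodes an ankyrin repeat protein best known from strained heart and skeletal muscle. Its position is chromosome 19 from 36111961 to 36120099, minus strand. It had 0, 6 and 0 reads in DMSO replicates 1, 2 and 3, and 31, 66 and 67 reads in AA replicates 1, 2 and 3. The 0 counts allow up to 0.126 CPM in DMSO replicate 1 and 0.188 CPM in DMSO replicate 3, counting error only. In CPM the AA libraries stood at 2.33, 3.70 and 4.81, and DMSO replicate 2 at 0.193. Ankrd1 was therefore close to absent from the solvent libraries and low in all 3 AA libraries.

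The log2 fold change for Ankrd1 was 2.08 (SE 0.29, limma adjusted p = 0.000628, n = 3 each), from 0.0642 ± 0.111 to 3.62 ± 1.24 CPM. The size depends on the number added before the logarithm, being 4.64 with 0.1 CPM, 0.76 with 5 CPM and 6.10 with voom, limma's method for counts, on the recovered reads. Ankrd1 reached the filter through its AA libraries alone, so its call over other settings is no measure of stability. With a filter of 4 CPM it was not tested, and it stayed in the fits without an AA library only because the tested genes were kept fixed. AA replicate 3 had the most Cyr61 and the most Ankrd1 of the AA libraries, and AA replicate 1 the least of both.

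**Figure D1:**
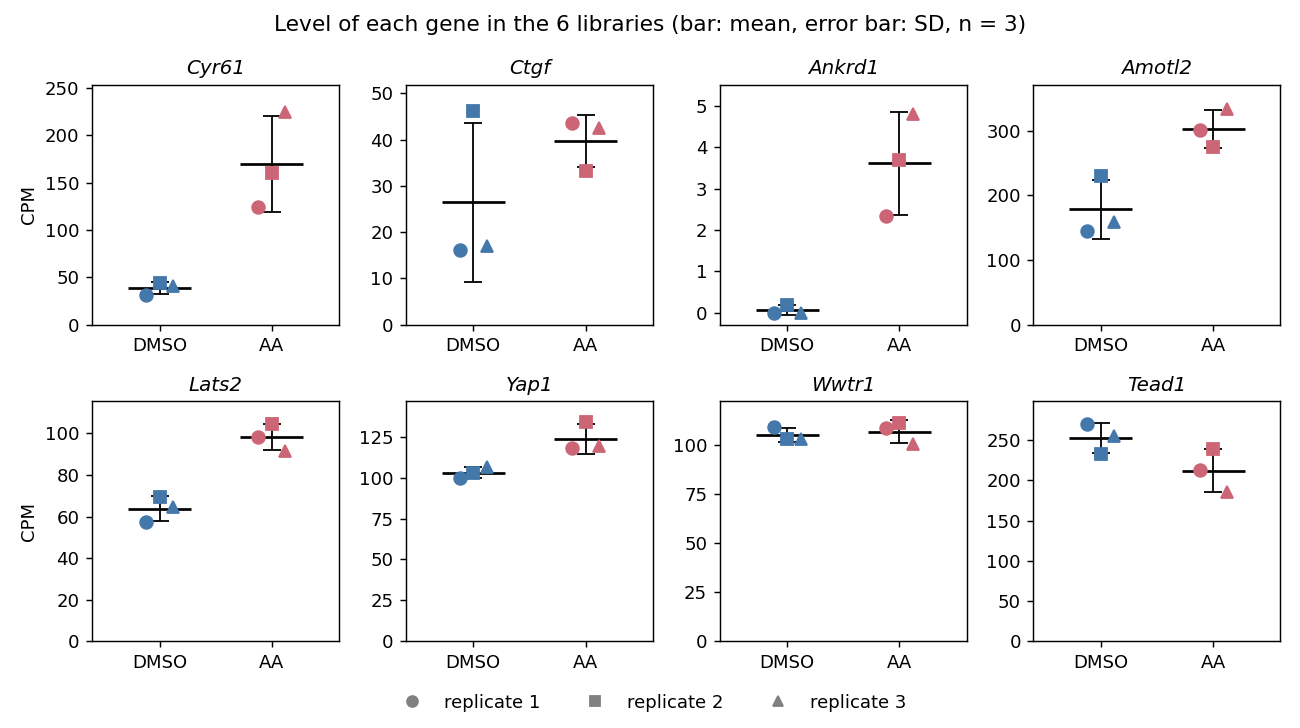
Level of the 8 genes in each of the 6 libraries, as CPM on linear axes; the symbols mark replicates 1, 2 and 3, the bars the mean and the error bars the SD (n = 3). The AA values of Cyr61 (125 to 225 CPM) and Ankrd1 (2.33 to 4.81 CPM) lie above all DMSO values, DMSO replicate 2 of Ctgf (46.1 CPM) lies above all AA values, and the groups overlap for Wwtr1 and Tead1.

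The targets that restrain the pathway also rose, by smaller folds. Amotl2 encodes an angiomotin-like junction protein that holds YAP in the cytoplasm and promotes LATS activity (chromosome 9 from 102716672 to 102733418, plus strand). It read 145, 231 and 159 CPM in DMSO and 300.5, 275 and 333 CPM in AA. The groups did not overlap, and DMSO replicate 2 was again the highest DMSO library. The mean rose from 178 ± 45.7 to 303 ± 29.0 CPM (log2 fold change 0.79, SE 0.18, limma adjusted p = 0.00735, n = 3 each). The call held in all 19 alternatives, with adjusted p-values of 0.00155 to 0.0386, and the log2 fold change was 0.53 with library medians equalised.

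Lats2 encodes one of the kinases that phosphorylate YAP and TAZ (chromosome 14 from 57689662 to 57758388, minus strand). It read 57.6, 69.2 and 64.7 CPM in DMSO and 98.5, 104 and 91.7 CPM in AA, without overlap. The mean rose from 63.8 ± 5.85 to 98.2 ± 6.33 CPM (log2 fold change 0.61, SE 0.13, limma adjusted p = 0.00636, n = 3 each). With library medians equalised it was 0.36 and the call was lost (adjusted p = 0.0564), as it was with the library-set term (0.59, adjusted p = 0.0857). In GENCODE M21 a coding gene, Gm49361, overlaps Lats2 on the same strand, so the level of Lats2 is uncertain to the extent that reads were divided between them. Its paralog Lats1 had 95.7 to 111 CPM in DMSO and 108 to 134 CPM in AA, with log2 fold change 0.21 (SE 0.14, adjusted p = 0.267). Lats1 was named after its values were seen. The difference between the changes of the paralogs was not tested.

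None of the 3 effector genes passed as deposited. Yap1 (chromosome 9 from 7931999 to 8004596, minus strand) read 99.9, 103 and 106 CPM in DMSO and 118, 134 and 119 CPM in AA. The groups did not overlap, but the distance was small: the means were 103 ± 3.20 and 124 ± 8.96 CPM, with log2 fold change 0.26 (SE 0.12, limma adjusted p = 0.135, n = 3 each). This was close to the median of all tested genes, and it was -0.00063 with library medians equalised. The 95% interval ran from -0.01 to 0.53 on the log2 scale.

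Wwtr1, which encodes TAZ, the paralog of YAP (chromosome 3 from 57455649 to 57575910, minus strand), read 109, 103 and 103 CPM in DMSO and 109, 111 and 100.4 CPM in AA. All 6 libraries stood at about the same level, and the groups overlapped. Its log2 fold change was 0.02 (SE 0.12, limma adjusted p = 0.908, n = 3 each), with a 95% interval of -0.25 to 0.29. The sign turned with other scalings: it was -0.24 with library medians equalised, -0.07 after quantile normalization and -0.19 with TMM factors.

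Tead1 encodes a DNA-binding partner of YAP and TAZ (chromosome 7 from 112679318 to 112906807, plus strand). It read 270, 233 and 255 CPM in DMSO and 212, 239 and 185 CPM in AA. AA replicate 2 lay above DMSO replicate 2, so the groups overlapped, with means of 253 ± 18.6 and 212 ± 26.8 CPM. The log2 fold change was -0.26 (SE 0.14, limma adjusted p = 0.177, n = 3 each). It passed as lower with library medians equalised (-0.52, limma adjusted p = 0.0284) and with TMM factors (-0.47, adjusted p = 0.0375). In these settings 16.9% and 14.6% of all tested genes passed as lower. After quantile normalization Tead1 did not pass (-0.24, limma adjusted p = 0.243).

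**Figure D2:**
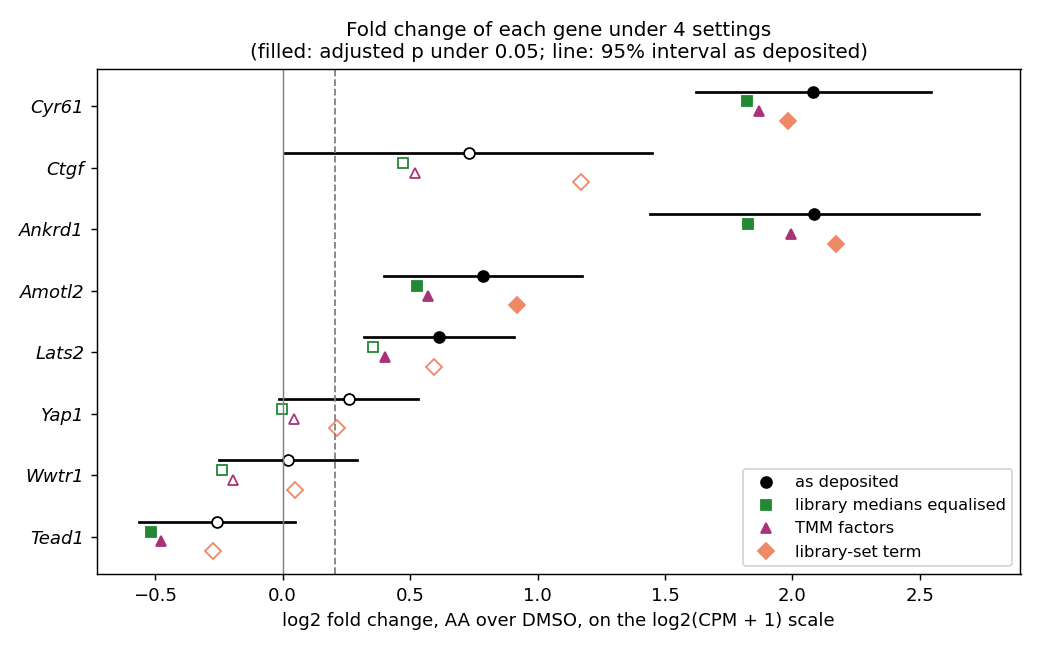
Log2 fold change of AA over DMSO for the 8 genes as deposited, with library medians equalised, with TMM factors and with the library-set term; filled symbols passed at an adjusted p under 0.05, the horizontal lines are 95% intervals of the values as deposited, and the dashed line is the median of all tested genes (0.21). Cyr61, Ankrd1 and Amotl2 are filled in all 4 settings, Lats2 in 2 of them, Tead1 in 2 of them, and Ctgf, Yap1 and Wwtr1 in none.

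Ratios between the genes within a library do not change when a whole library is multiplied by a factor, as TMM does, whereas quantile normalization can change them. The 7 pairs were chosen after the values of the genes were seen. Yap1 over Wwtr1 was 0.915, 1.0 and 1.03 in DMSO and 1.09, 1.20 and 1.19 in AA. The groups did not overlap, and the AA libraries thus held slightly more Yap1 per Wwtr1. Tead1 over Yap1 was 2.71, 2.26 and 2.40 in DMSO and 1.80, 1.78 and 1.55 in AA. Tead1 over Wwtr1 was also lower in every AA library, at 2.41 ± 0.123 in DMSO and 1.98 ± 0.153 in AA (mean ± SD, n = 3). Relative to both coactivators, less Tead1 was therefore measured in AA.

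Cyr61 over Ctgf was 1.93, 0.947 and 2.41 in DMSO and 2.86, 4.81 and 5.29 in AA. This ratio was thus higher in every AA library than in any DMSO library, with or without DMSO replicate 2. Cyr61 over Yap1 went from 0.373 ± 0.0575 to 1.38 ± 0.444, and Lats2 over Yap1 from 0.619 ± 0.0486 to 0.794 ± 0.0355. Only Amotl2 over Yap1 overlapped between the groups, where DMSO replicate 2 (2.24) exceeded AA replicate 2 (2.05). Of the 7 ratios examined, 6 had the smallest p-value that 3 libraries against 3 can give in a two-sided exact permutation test (0.1, or 0.117 after Benjamini-Hochberg adjustment over the 7), and Amotl2 over Yap1 had 0.2. None could pass a threshold of 0.05 in this design. A p-value of 0.1 in this test means only that the groups did not overlap. Among single tested genes, 33.4% did not overlap with AA higher and 13.0% with AA lower. The share among other gene pairs was not counted, so the count of 6 says nothing particular about these genes.

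**Figure D3:**
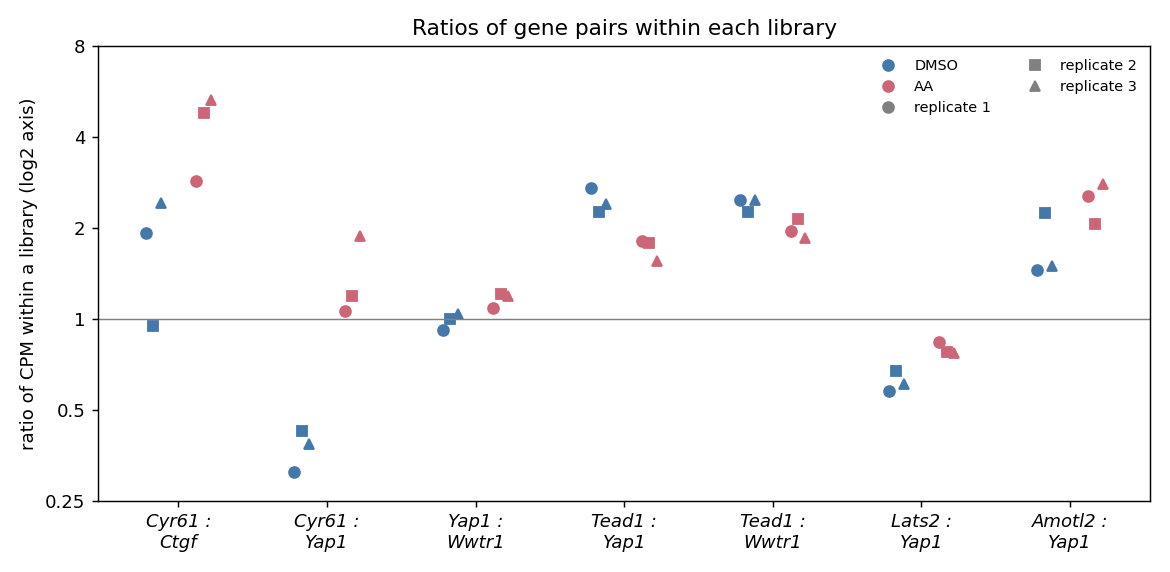
Ratio of CPM of 7 gene pairs within each library, on a log2 axis, for DMSO (blue) and AA (red); the symbols mark replicates 1, 2 and 3. Cyr61 stands higher against Ctgf and Yap1 in every AA library, Tead1 stands lower against Yap1 and Wwtr1, and Amotl2 against Yap1 is the pair whose groups overlap.

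To compare levels between genes, CPM were divided by the summed length of the exons of protein-coding transcripts in GENCODE M21. Per kilobase, the DMSO libraries held most Amotl2 (35.4 ± 9.09 CPM per kb), then Yap1 (24.7 ± 0.767), Tead1 (24.2 ± 1.78), Wwtr1 (22.0 ± 0.753) and Cyr61 (19.1 ± 3.29). Lats2 (9.57 ± 0.878), Ctgf (9.23 ± 5.97) and Ankrd1 (0.0318 ± 0.0551) followed. Neighbours whose libraries overlapped, and whose order is therefore not fixed, were Yap1 and Tead1, Tead1 and Wwtr1, Wwtr1 and Cyr61, and Lats2 and Ctgf.

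In AA the order of levels per kilobase began with Cyr61 (84.0 ± 25.1 CPM per kb) and Amotl2 (60.2 ± 5.77), which overlapped. Yap1 (29.6 ± 2.14) stood apart from its neighbours, and Wwtr1 (22.3 ± 1.19) overlapped Tead1 (20.3 ± 2.56). Lats2 (14.7 ± 0.949) overlapped Ctgf (13.9 ± 1.98), and Ankrd1 stayed last at 1.79 ± 0.615. Among all tested genes with a length, Cyr61 moved from percentile 79.0 in DMSO to 95.6 in AA, whereas Wwtr1 stood at 81.8 and 79.8. With the length of the longest coding transcript instead, Tead1 and Yap1 changed places in DMSO and the order in AA was the same.

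The genes also differ in genomic length. Cyr61 (3.01 kb), Ctgf (3.24 kb) and Ankrd1 (8.14 kb) are compact, and Amotl2 spans 16.7 kb. Lats2 (68.7 kb), Yap1 (72.6 kb), Wwtr1 (120 kb) and Tead1 (227 kb) are long, the last being longer than 95.7% of tested coding genes. The 4 shortest genes had log2 fold changes of 0.73 to 2.08 and the 4 longest of -0.26 to 0.61. All 4 shortest genes are targets, and the longest include all the effectors, so length and role cannot be told apart here. This is a description of 8 chosen genes with no test. Genes annotated on the opposite strand overlap Ctgf (Gm15270), Yap1 (Gm20416), Tead1 (2310014F06Rik), Wwtr1 (Gm16016, at most 0.862 CPM) and Lats2 (Gm26440 and Gm20430, the latter at 0 in all libraries), and the sources used here do not give whether the counting used strand.

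The remaining pathway genes were taken from lists written from general knowledge. Among 18 other kinases and activators of the Hippo cascade, 5 passed as higher and 1 as lower, with a median log2 fold change of 0.17 against 0.21 for all tested genes. This share is near the background of 22.3% higher and 8.66% lower. Stk3, which encodes the kinase MST2, fell from 18.3 ± 2.66 to 9.42 ± 0.945 CPM (log2 fold change -0.88, SE 0.20, limma adjusted p = 0.00753, n = 3 each), and passed in all 19 alternatives. Frmd6, a FERM domain activator of the pathway, rose from 3.81 ± 0.573 to 9.57 ± 1.82 CPM. Mob1a, a cofactor of the LATS kinases, rose from 45.5 ± 7.80 to 77.5 ± 18.6 CPM, and Sav1, the scaffold of the MST kinases, from 39.5 ± 3.96 to 57.5 ± 3.62 CPM. The calls of Mob1a and Sav1 were lost with library medians equalised (adjusted p = 0.0905 and 0.191) and with TMM factors (0.0627 and 0.12), and that of Sav1 after quantile normalization (0.0869). Both were also lost without AA replicate 2, and those of Mob1a, Sav1 and Frmd6 under the library-set term (adjusted p = 0.142, 0.222 and 0.103). The calls of Mob1b and Taok2, named after their values were seen, were lost with library medians equalised (limma adjusted p = 0.15 and 0.244). They were also lost under the library-set term and without AA replicate 2 or 3. These were the other higher genes of the list. With library medians equalised, 1 was higher and 4 were lower, and with the library-set term 0 and 1. Without AA replicate 2, 1 was higher and 1 lower.

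Of 17 junction, polarity and scaffold genes, 8 passed as higher and 0 as lower, with a median log2 fold change of 0.49. Fat1, a giant protocadherin that acts upstream of the pathway, read 392, 439 and 409 CPM in DMSO and 885, 834 and 874 CPM in AA. These AA libraries stood at about the same level and far from DMSO, with log2 fold change 1.06 (SE 0.13, limma adjusted p = 0.000326, n = 3 each). Rassf1, an adaptor of the MST kinases, rose from 19.6 ± 2.44 to 48.9 ± 4.73 CPM. Ajuba, a LIM protein that inhibits LATS, rose from 37.3 ± 3.00 to 80.9 ± 8.53 CPM. Tjp1, which encodes the tight junction protein ZO-1, had 57.1 ± 7.47 and 97.7 ± 15.3 CPM, and its call was lost under the library-set term (adjusted p = 0.111). The first 3 passed in every alternative run. Ptpn14, a phosphatase that binds YAP, was also higher and stands on both this list and the target signature described next. It was named after its values were seen. With library medians equalised, 6 genes of the list were higher and 1 was lower, and with the library-set term 4 and 0.

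Of the other TEAD factors and their cofactors, 5 of 7 were tested, 1 was higher and 4 did not pass. Vgll3, a vestigial-like cofactor of TEAD, had 1.46 ± 0.866 and 3.76 ± 1.26 CPM, with log2 fold change 0.99 (SE 0.34, limma adjusted p = 0.0469). With a filter of 4 CPM it was not tested, and its call was lost in 10 of the 18 other alternatives. Among them were every other scaling (limma adjusted p = 0.0912 to 0.19), no filter on low values (0.113) and the library-set term (log2 fold change 0.75). The fits without DMSO replicate 2, AA replicate 2 or AA replicate 3 also lost it. Tead2, Tead3 and Tead4 did not pass, with log2 fold changes of 0.59, 0.43 and 0.33. These 3 were named to complete the family.

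A general signature of YAP and TAZ targets, without the 8 genes, had 16 of 17 genes tested. Of these, 7 passed as higher and 1 as lower, with a median log2 fold change of 0.51. Myof, which encodes the membrane repair protein myoferlin, read 10.7, 10.02 and 12.8 CPM in DMSO and 39.1, 62.5 and 59.0 CPM in AA. Its groups lay far apart, with log2 fold change 2.14 (SE 0.21, limma adjusted p = 6.23e-05, n = 3 each), close to that of Cyr61. Gadd45a, a growth arrest gene that p53 also regulates, went from 30.7 ± 19.1 to 93.5 ± 7.15 CPM. Rbms3, which encodes an RNA-binding protein, went from 16.1 ± 2.13 to 37.8 ± 8.62 CPM. Axl, a receptor tyrosine kinase, went from 13.1 ± 1.49 to 29.7 ± 4.21 CPM. The call of Rbms3 was lost under the library-set term (adjusted p = 0.0521), and those of Myof, Gadd45a and Axl held in every alternative. For Gadd45a, DMSO replicate 3 (52.5 CPM) stood well above the other DMSO libraries, and against it alone the log2 fold change was 0.82. The lower gene was Dock5, a guanine nucleotide exchange factor named after its values were seen, with a log2 fold change of -0.68 and an adjusted p of 0.0876 under the library-set term. With library medians equalised 6 were higher and 2 lower, with the library-set term 5 and 0.

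Of the other CCN genes and relatives of Ankrd1, 2 of 6 reached the level for testing, and both were higher. Wisp1, also called Ccn4, went from 1.72 ± 0.701 to 5.03 ± 1.05 CPM, and Ankrd23 from 2.22 ± 1.39 to 5.34 ± 0.848 CPM (limma adjusted p = 0.0101 and 0.0333, log2 fold changes 1.16 and 1.07, n = 3 each). The call of Wisp1 was lost after quantile normalization (adjusted p = 0.0572) and under the library-set term (0.216). That of Ankrd23 was lost in 9 of 19 alternatives. These were every other scaling (0.0646 to 0.13), no filter on low values (0.0991), voom (0.0522), and leaving out DMSO replicate 1 or 3 or AA replicate 2 or 3.

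Cyr61, Ctgf and Ankrd1 are also known targets of SRF and its actin-sensing cofactors MRTF, so a list of actin-linked SRF targets was counted. Of 14 tested genes, 9 passed as higher and 0 as lower, with a median log2 fold change of 0.71. Tpm4, a tropomyosin, rose from 29.9 ± 2.08 to 76.9 ± 19.7 CPM (log2 fold change 1.31, SE 0.18, limma adjusted p = 0.000547, n = 3 each). Flna, which encodes the actin crosslinker filamin A, rose from 53.5 ± 13.7 to 108 ± 14.1 CPM. Fhl2, a LIM cofactor, went from 4.8 ± 0.291 to 10.8 ± 0.945 CPM, and Tagln2, an actin-binding protein, from 52.0 ± 5.61 to 94.9 ± 21.5 CPM. The calls of Fhl2 and Tagln2 were lost under the library-set term (adjusted p = 0.0806 and 0.105). With library medians equalised 6 were higher and 0 lower, with the library-set term 2 and 0, and without AA replicate 2, 5 and 0.

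**Figure D4:**
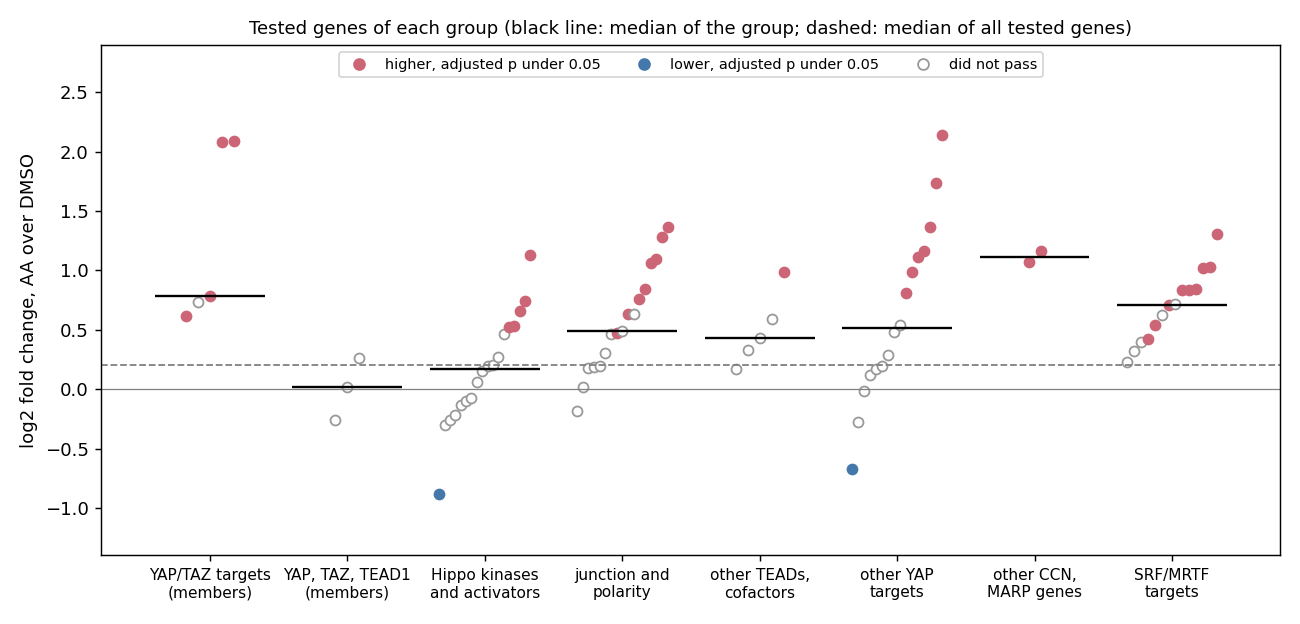
Log2 fold change of AA over DMSO for each tested gene of the target and effector groups and of the 6 further lists; red passed as higher, blue as lower and open circles did not pass, the black lines are group medians and the dashed line the median of all tested genes (0.21). The kinase list centres on the dashed line (median 0.17), while the junction, signature and SRF lists have medians of 0.49, 0.51 and 0.71.

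Cyr61 and Ctgf are known to be expressed by stromal, vascular and glomerular cells as well as by tubules, so markers of other cell types were read in the same libraries. In bulk RNA, more cells of a type and more RNA per cell cannot be told apart. All 12 proximal tubule markers were present, with sums of 42169 to 58301 CPM in DMSO and 36011 to 49381 CPM in AA, with Kap and Slc27a2 the most abundant. Of these 12, 1 passed as higher and 3 as lower. Stromal and smooth muscle markers summed to 96.8 to 144 CPM in DMSO and 187 to 213 CPM in AA, and 4 of 10 were higher. Pdgfrb, the pericyte receptor, had 20.03 ± 4.41 and 40.4 ± 3.37 CPM, and Col1a2, a collagen chain that did not pass, 29.3 ± 9.59 and 44.8 ± 8.33 CPM. These stromal sums were higher in AA without overlap, as were the podocyte and collecting duct sums given below. Among single tested genes, 33.4% were higher in AA without overlap.

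Podocyte and parietal markers summed to 89.4 to 111 CPM in DMSO and 145 to 189 CPM in AA (3 of 9 higher). Their most abundant genes were Podxl, which did not pass, and Cldn1, which did. The slit diaphragm gene Nphs1, named after its values were seen, stood at 4.39 to 5.56 and 4.06 to 6.45 CPM. Endothelial markers summed to 257 to 398 and 395 to 458 CPM (2 of 10 higher), and the most abundant, Flt1 and Plvap, did not pass. Collecting duct markers summed to 18.5 to 36.8 and 48.9 to 101 CPM (3 of 9 higher). The most abundant were the water channel genes Aqp2, at 7.27 to 9.41 and 25.8 to 66.5 CPM, and Aqp3, which did not pass. Thick limb and distal markers summed to 238 to 533 and 348 to 1389 CPM (2 of 7 tested higher), and the most abundant, Umod and Slc12a1, did not pass. Leukocyte markers summed to 180 to 270 and 174 to 228 CPM (4 of 9 tested higher). The most abundant were Csf1r, which did not pass, and the macrophage gene Cd68, at 0.376 to 1.25 and 20.1 to 38.4 CPM. No marker was at 0 in every library, and only Cd3e stayed under 1 CPM throughout. The part of these cells in the changes of the YAP targets was not tested. DMSO replicate 2 had the most Cyr61, Ctgf, Ankrd1, Amotl2 and Lats2 of the DMSO libraries. It also had their highest endothelial, stromal, leukocyte, thick limb and collecting duct sums (398, 144, 270, 533 and 36.8 CPM). The podocyte sum was highest in DMSO replicate 1 (111 CPM). Of the AA libraries, AA replicate 2 had the least Ctgf and Amotl2 (33.2 and 275 CPM) and the most Lats2 (104 CPM). Its Cyr61 and Ankrd1 lay between those of AA replicates 1 and 3. Its endothelial, podocyte, thick limb and collecting duct sums were the highest of AA (458, 189, 1389 and 101 CPM). Its stromal sum (213 CPM) was close to the highest, and its leukocyte sum (174 CPM) was the lowest.

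**Figure D5:**
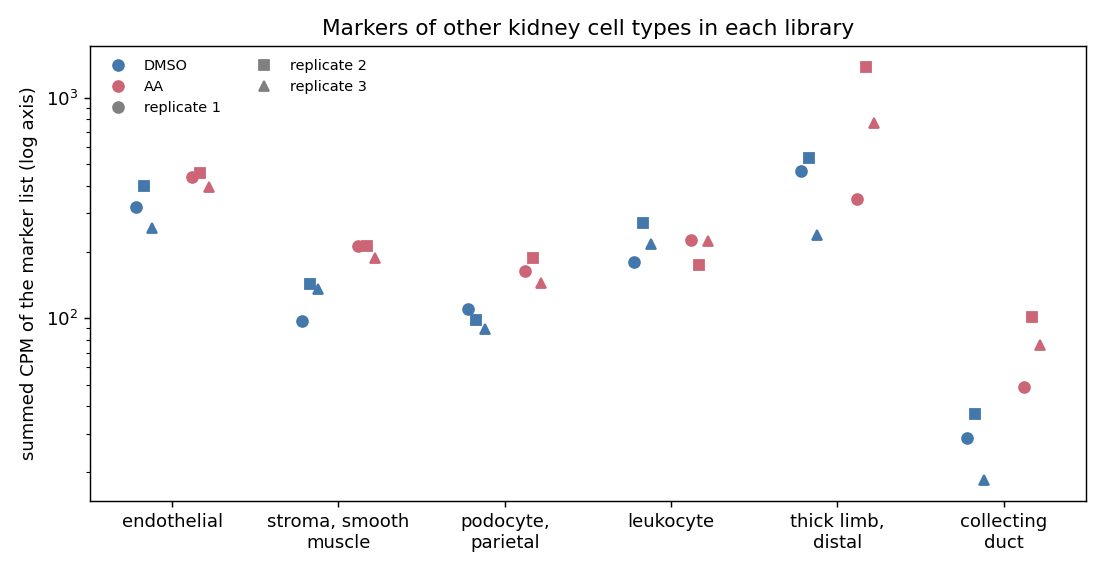
Summed CPM of marker lists of 6 other cell groups in each library, on a log axis, for DMSO (blue) and AA (red), with symbols for replicates 1, 2 and 3. The stromal, podocyte and collecting duct sums of the AA libraries lie above all DMSO libraries, while the endothelial, leukocyte and thick limb sums overlap.

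For each of the 8 genes, the tested coding gene with the most similar profile over the 6 libraries was found, as the smallest root mean square difference of log2(CPM + 1) values around each gene's own mean. For Cyr61 it was Tubb6, a tubulin isotype (difference 0.11), which read 6.15, 9.12 and 7.58 CPM in DMSO and 29.9, 37.7 and 43.7 CPM in AA. For Ankrd1 it was Marcksl1 (0.10), at 4.14, 4.56 and 3.63 CPM in DMSO and 14.9, 20.1 and 31.0 CPM in AA. For Ctgf it was Hmha1 (0.13), which shared the high DMSO replicate 2 (7.58 CPM, against 2.97 and 2.76 CPM). For Amotl2 it was Tsr3 (0.04) and for Lats2 Armc10 (0.03). For the effectors Yap1, Wwtr1 and Tead1 the nearest were Wdr35, Pex11a and Rbl2. Of 12772 coding genes, 3247 lay within 0.2 of Yap1, 2810 of Wwtr1, 1758 of Lats2, 1239 of Tead1 and 516 of Amotl2. For Ankrd1 29 lay that near, for Cyr61 20 and for Ctgf 9. The differences were not scaled by each gene's spread, so these counts also reflect how far each gene varied. This likeness over 6 libraries is a description only.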

How the data were processed

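The deposited table holds log10 values for 32544 genes in 6 libraries. That they are log10(CPM + 1) was read from the values, since each column has the sum of CPM once the logarithm is undone. Per the submitters' processing notes, bcl2fastq 2.19 and kallisto were named, with build mm10. As to the annotation, the strand setting and how transcripts were joined to genes, these were not given in the sources used here. Deposited log10 values were turned back to CPM and logged as log2(CPM + 1). Whole reads were recovered for 100% of values within 0.1 read.

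Testing was limited to genes that reached 1 CPM in 3 or more libraries, with limma 3.58.1 (moderated test, variance trend, two-sided) in R 4.3.3, with Benjamini-Hochberg adjustment over all 14311 and calls under 0.05. The test was checked on simulated data. SE and 95% intervals are limma's, and the upper limits for 0 reads (3 counts) cover counting error only. The 8 genes and all lists were chosen with earlier results of these data known. Named were the 8 genes, up to 4 called genes per pathway list with the smallest adjusted p, the nearest gene to each of the 8, and the 2 highest markers per cell type; other genes are marked where they appear. Alternatives were other scalings, filters, pseudocounts, variance models, weights, a replicate block, voom and leaving out each library. Leaving out a library kept the 14311 genes, a choice made after Ankrd1 was found to drop out otherwise. The library-set term, the ratios and the motifs were chosen after seeing the data. Gene positions and lengths came from GENCODE M21 (GRCm38), matched for 94.6% of tested genes, and promoter windows from RefSeq (GRCm38.p6).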

Additional observations from a re-analysis of the deposited data

How the results depend on the processing

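Of the 8 genes, Cyr61 and Amotl2 kept direction and call in all 19 alternatives. Ankrd1 also did in the 18 in which it was tested, but it passed the filter through the AA libraries alone and was kept in the fits without an AA library by a choice made afterwards. Ctgf (0.73 as deposited) passed with array weights (0.85, adjusted p = 0.0451) and ranged from 0.47 to 1.21 when libraries were left out in turn, passing without DMSO replicate 2. With library medians equalised, Yap1 had -0.00063, Wwtr1 -0.24, Lats2 0.36 and Tead1 -0.52, so that Lats2 no longer passed and Tead1 did. With TMM factors Wwtr1 had -0.19 and Tead1 -0.47, and after quantile normalization Wwtr1 had -0.0682 and Tead1 -0.24. Wwtr1 ranged from -0.00787 (without AA replicate 2) to 0.0656 when libraries were left out. With the library-set term Lats2 (0.59) did not pass. The cause of these shifts was not tested.

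Of all tested genes, 4426 were called, 1481 with the library-set term (1395 shared) and 2645 to 3980 when libraries were left out, the lowest without AA replicate 2. With voom on recovered reads 4366 were called, 4235 of them shared. Of 71 tested genes on the pathway lists, 31 were higher and 2 lower. These counts were 19 and 7 with library medians equalised, 20 and 4 after quantile normalization, 19 and 5 with TMM factors, and 11 and 1 with the library-set term. They were 19 to 28 higher when libraries were left out.

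Replicate numbers are shared between the groups, and the labels do not say whether same-numbered libraries belong together. Their deviations from the group means had correlations of -0.11, -0.16 and -0.02. With 3 libraries per group, such values cannot decide whether the libraries are paired. With a replicate block 3813 genes were called, and no call among the 8 genes changed. Precision is limited by 3 libraries per group and, for Ankrd1, by few reads.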
